A study of Mus musculus with 8 samples.

Results

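Chromosomes 11 and 15 are the autosomes with about 1.5 times the usual read coverage in some libraries of this Hi-C series, chromosome 11 in both RING1B knockout libraries and chromosome 15 in 2 of 4 wild-type libraries. Their contacts are described by 37 of the 231 counted pairs of chromosomes: chromosome 11 with itself, chromosome 15 with itself, and 35 pairs of either one with another autosome. These members, and the libraries called gained, were chosen by their coverage in the same data, so the size of the gain is a description without a test. The values ask whether an extra copy raised contacts within the chromosome (cis) and contacts with other chromosomes (trans) equally, and whether all partners shared in the rise.

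Hi-C joins DNA ends that lie near each other in the fixed nucleus and counts the joined pairs by sequencing. Most pairs fall within 1 chromosome, because each chromosome occupies its own territory, and pairs between chromosomes come from places where territories touch. Mouse embryonic stem cells in culture are known for gaining whole chromosomes, and chromosomes 8 and 11 are among those often reported. A cell with 3 copies in place of 2 holds 1.5 times the DNA of that chromosome. If every copy had the same neighbours, pairs within each copy and pairs with each partner would rise by that ratio. Counts by chromosome name also take pairs between copies of 1 chromosome as cis, and these need not follow that ratio.

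The cells were feeder-free mouse embryonic stem cells of 129/Ola origin. The wild-type line E14tg2A (Ring1B+/+) gave 4 libraries (WT 1 to WT 4). A derivative line homozygous for the I53A substitution in RING1B (Ring1B I53A/I53A) gave 2 (I53A 1 and I53A 2), and a derivative line without RING1B (Ring1B -/-, KO) gave 2 (KO 1 and KO 2). RING1B is the catalytic ubiquitin ligase of PRC1, a Polycomb complex that keeps developmental genes repressed in these cells. Each RING1B genotype is thus 1 line, so a copy gained in a line cannot be told apart from its genotype. The labels call the libraries biological replicates and do not give passage numbers or say whether WT libraries came from separate cultures. If they did not, the p-values measure the spread between libraries only. Counts per pair of chromosomes hold no values for single genes, so the loss of RING1B was not checked here.

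Unique pairs numbered 121369690 to 164477401 in WT libraries and 224243196 to 268942815 in the I53A and KO libraries. The 37 members held 4448199 to 18960360 cis pairs and 36211 to 623696 trans pairs per library, so counting error was at most 0.526% of a member's count. That covers counting error only, and the spread between libraries set the precision. Pairs under 1 kb apart were 42.3% to 50.4% of cis pairs in WT, 34.5% and 14.05% in I53A 1 and I53A 2, and 24.6% and 32.9% in KO 1 and KO 2. They could not be removed for a single chromosome, so all cis values here include them. The rescued share, unique pairs for which an end was placed from a chimeric read, was 25.6%, 26.0% and 30.6% in WT 1, WT 2 and I53A 2 and 43.1% to 47.2% in the other libraries. Both libraries with more chromosome 15 thus had a low share and both with more chromosome 11 a high one.

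Chromosome 11 (1 to 121843856 in NCBIM37, the assembly also called mm9) is 12th of the 19 autosomes in length, 1st in GC content at 43.8% and 2nd in protein-coding genes at 13.9 per Mb. Chromosome 15 (1 to 103494974) is an average autosome by composition, with 42.0% GC and 7.94 genes per Mb. Both carry about the same density of sites for DpnII, the enzyme that cut the chromatin, with 2488 and 2478 sites per Mb. The 16 reference autosomes, all but chromosomes 1, 11 and 15, ranged from 2444 to 2613 sites per Mb.

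Cis pairs of chromosome 11 were 11.001% and 11.04% of the cis pairs of the 16 reference autosomes in KO 1 and KO 2. They were 7.46%, 7.53%, 7.11% and 7.41% in WT 1 to WT 4 and 7.40% and 7.29% in I53A 1 and I53A 2. The KO libraries stood clear of the others, which stayed within 7.11% to 7.53%. Chromosome 11 was thus 1 of the 10.5% of the 19 autosomes whose cis pairs were higher in both KO libraries than in all others. The mean was 11.02% ± 0.0296 in KO (SD, n = 2) and 7.37% ± 0.149 in the other libraries (SD, n = 6), a ratio of 1.50.

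Trans pairs of chromosome 11 with the reference autosomes were set against the trans pairs among those 16. They came to 25.1% and 25.6% in KO 1 and KO 2, to 16.9%, 17.3%, 16.5% and 17.4% in WT 1 to WT 4, and to 17.1% and 16.9% in I53A 1 and I53A 2. Again the KO libraries lay far above a narrow band. The mean was 25.4% ± 0.367 in KO (SD, n = 2) and 17.02% ± 0.296 in the others (SD, n = 6), a ratio of 1.49.

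Cis and trans pairs of chromosome 11 therefore rose by nearly the same ratio. On the log2 scale the cis rise exceeded the trans rise by 0.0047, against an SD of 0.016 between libraries, so no difference between them was detectable with 2 KO libraries. KO 1 and KO 2 lay on either side, at cis-over-trans log2 values of -1.19 and -1.22, within the range of the other libraries from -1.23 to -1.18. Restricted to the 5 libraries of high rescued share, which are KO 1, KO 2, WT 3, WT 4 and I53A 1, the ratio was 1.51 for cis and 1.49 for trans.

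Cis pairs of chromosome 15 were 7.70% and 7.73% of reference cis pairs in WT 1 and WT 2. WT 3 and WT 4 had 5.16% and 5.18%, I53A 1 and I53A 2 had 5.18% and 5.14%, and KO 1 and KO 2 had 5.12% and 5.09%. WT 1 and WT 2 were high and alike, and the other libraries, WT 3 and WT 4 among them, were low and alike. Of the 19 autosomes 26.3%, chromosome 15 among them, had cis pairs higher in both WT 1 and WT 2 than in all others. The ratio of the 2 high libraries to the mean of the other 6 was 1.50 in both.

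Trans pairs of chromosome 15 with the reference autosomes were 16.8% and 16.96% of reference trans pairs in WT 1 and WT 2. WT 3 and WT 4 had 11.3% and 11.4%, I53A 1 and I53A 2 had 11.4% and 11.5%, and both KO libraries had 11.4%. The same 2 libraries stood apart. Their ratios to the mean of the other 6 were 1.47 and 1.49.

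For chromosome 15 the cis rise exceeded the trans rise by 0.017 on the log2 scale, against an SD of 0.014 between libraries. The cis-over-trans log2 values of WT 1 and WT 2 were -1.129 and -1.135, and the other 6 libraries ranged from -1.169 to -1.126. They fell within that range through WT 3 alone, since the remaining libraries lay at -1.143 or lower. Within WT, the libraries without the gain lay on either side of them, WT 3 at -1.126 and WT 4 at -1.143. The I53A and KO libraries all lay lower than WT 1 and WT 2, from -1.143 to -1.169. The gap stayed positive under the other references, in the low rescued share and with each library left out, from 0.012 to 0.030. Every one of these settings kept I53A or KO libraries in the comparison. WT 1 and WT 2 were not set against WT 3 and WT 4 alone, so a gap that goes with the extra copy is not shown. In the low rescued share, where I53A 2 was the sole library without the gain, the cis ratio was 1.50 and the trans ratio 1.47, and the gap was 0.030. Because the labels put WT 1 to WT 4 in 1 group, WT means of this chromosome mix both levels, with 6.44% ± 1.47 for cis (SD, n = 4).

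**Figure D1:**
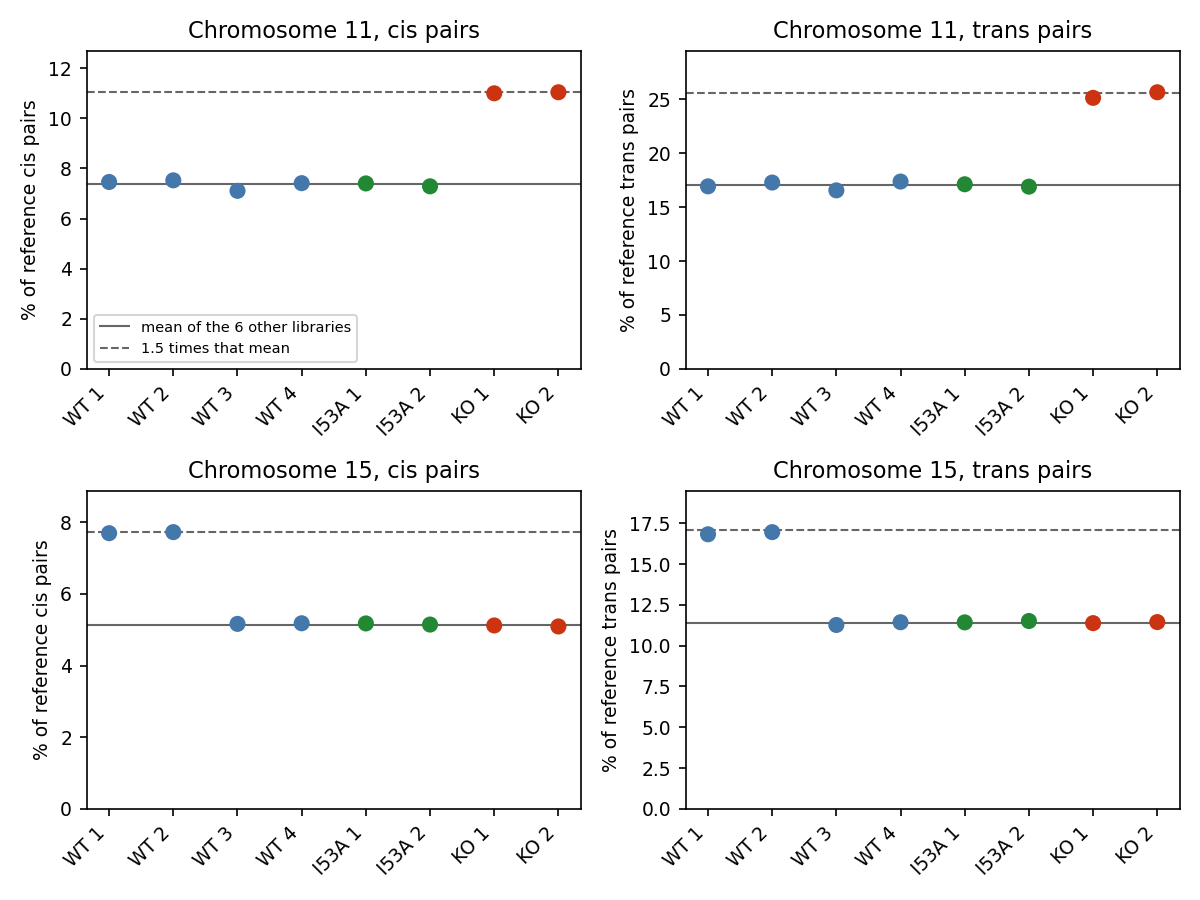
Cis and trans pairs of chromosomes 11 and 15 in each of the 8 libraries (x axis), as percent of the pairs within or among the 16 reference autosomes (y axis, from 0). Points are libraries, coloured by genotype (blue WT, green I53A, red KO). The solid line is the mean of the 6 libraries without the gain and the dashed line 1.5 times that mean, on or close to which the gained libraries lie in every panel.

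The other autosomes, measured the same way, show what a chromosome without a gain does. In the KO libraries the cis ratios of the 16 reference autosomes ran from 0.975 (chromosome 16) to 1.03 (chromosome 12) and their trans ratios from 0.974 (chromosome 3) to 1.05 (chromosome 12). In WT 1 and WT 2 the cis ratios ran from 0.962 (chromosome 14) to 1.02 (chromosome 17) and the trans ratios from 0.975 (chromosome 19) to 1.02 (chromosome 4). Chromosome 11 in KO and chromosome 15 in WT 1 and WT 2 lay far outside both ranges.

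**Figure D2:**
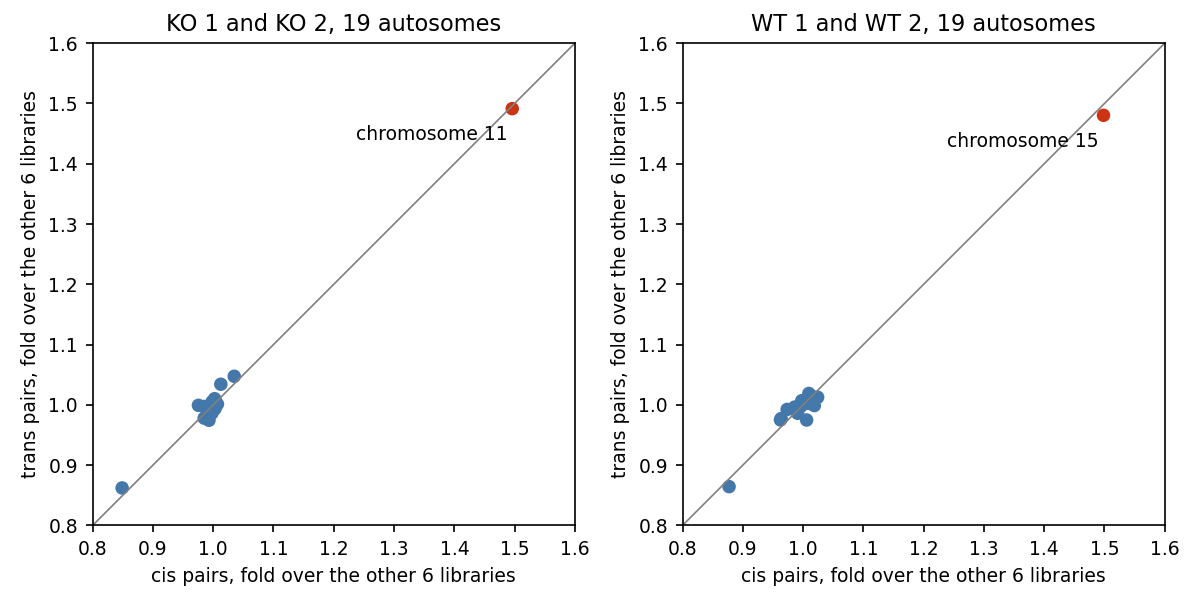
Ratio of the gained libraries to the other 6 in cis pairs (x axis) and trans pairs (y axis) for all 19 autosomes, with KO 1 and KO 2 on the left and WT 1 and WT 2 on the right. The red point is chromosome 11 or 15, blue points are the other autosomes, and the line marks equal ratios. The gained chromosome lies near 1.5 on both axes while the reference autosomes stay between 0.962 and 1.05, and the lone blue point near the lower left corner is the other gained chromosome (15 on the left at 0.849 and 0.862, 11 on the right at 0.877 and 0.864), whose gained libraries are among the 6.

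Per base of sequence, the chromosomes also differed before any gain. In the 6 libraries other than KO, chromosome 11 had 1.19 to 1.26 times the cis pairs per Mb of the reference autosomes together, above the highest reference autosome in any library, chromosome 19 at 1.11. In KO it had 1.84 and 1.84 times. Its trans pairs per product of the lengths in Mb were 1.29 to 1.35 times the reference outside KO and 1.96 and 2.00 times in KO. The lower end of its range outside KO lay below the highest value of a reference autosome in any library, 1.31 for chromosome 19 in KO 2. Chromosome 15 had 1.01 to 1.02 times the reference cis pairs per Mb and 1.04 to 1.06 times the trans pairs in libraries without its gain, and 1.52 to 1.53 and 1.55 to 1.56 times in WT 1 and WT 2. Without a gain, chromosome 11 stood above every reference autosome in cis pairs per Mb, and chromosome 15 was close to the reference. In trans the highest reference value came from a KO library, and chromosomes were not compared within the same library. Whether chromosome 11 stood clear of all in trans without a gain is thus not shown.

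All partners shared in the rise of chromosome 11. In 17 of its 18 trans pairs both KO libraries were higher than all 6 other libraries, where 21.1% of the 171 autosomal pairs, members included, met that rule, and 19 of the 120 reference pairs. Since the rule for chromosome 11 used these libraries, nothing is read from that count. The exception was chromosome 15, whose own gain raised the same pair in WT 1 and WT 2. Over the 16 reference partners the ratio had a median of 1.48 and ran from 1.46 to 1.58.

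Chromosome 19, the shortest autosome and rich in genes, was the highest partner of chromosome 11. Their pairs were 1.01% and 1.05% of reference trans pairs in KO 1 and KO 2, 0.628%, 0.661%, 0.626% and 0.685% in WT 1 to WT 4, and 0.667% and 0.663% in I53A 1 and I53A 2. The ratio was 1.55 in KO 1 and 1.604 in KO 2. Chromosomes 12 and 14 followed with 1.53 each. Chromosome 12 had itself the highest cis and trans ratios of the reference autosomes in KO, and measured as a share of the partner's own trans pairs its ratio with 11 was 1.47. On that measure chromosome 19 stayed highest, at 1.53.

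The lowest reference partners of chromosome 11 were chromosomes 3, 18 and 10, at 1.46, 1.46 and 1.47. With chromosome 3 the values were 1.62% and 1.62% in KO 1 and KO 2, 1.09%, 1.11%, 1.11% and 1.12% in WT 1 to WT 4, and 1.12% and 1.10% in I53A 1 and I53A 2. Even this partner rose by nearly the copy ratio, and the other libraries barely differed. The pair with chromosome 1, which was left out of the reference, rose by 1.47. It was 2.06% and 2.06% in the KO libraries, 1.35% to 1.42% in WT, and 1.46% and 1.38% in I53A.

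The unevenness between partners of chromosome 11 was set beside the spread between libraries on 3 measures. As pairs over reference trans pairs, the SD of the log2 ratio over the 16 reference partners was 0.030. At a typical partner the SD between the 6 other libraries was 0.029, and KO 1 and KO 2 differed from each other by a median of 0.032. In 1 of 16 partners, chromosome 12, the ratio lay over 2 of that partner's own library SDs from the median. Chromosome 19 was farther from the median but its libraries also spread more, so it lay within 2 SDs. As a share of the partner's own trans pairs, the SD over partners fell to 0.017, below the SD between libraries of 0.028, and no partner lay beyond 2 SDs. As observed over expected pairs, where each chromosome's total is taken out, it was 0.014, above the SD between libraries of 0.0096 and the gap between KO 1 and KO 2 of 0.0056. On that measure 9 of 16 partners lay beyond 1 SD and 3 beyond 2 SDs. The spread over partners was thus above that between libraries on this measure, about equal to it on the first and below it on the second. On the first measure, single libraries without the gain, each against the mean of the rest, had SDs over partners of 0.017 to 0.031. Those of KO 1 and KO 2 were 0.028 and 0.035. The same spread was not measured for chromosomes without a gain. Over all 190 pairs of different chromosomes, 18.4% had both KO libraries outside the range of the other 6 on 1 side. Unevenness particular to chromosome 11 is therefore not shown.

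Chromosome 15 rose with all its partners too. In 17 of its 18 trans pairs WT 1 and WT 2 were above all other libraries, against 21.1% of the 171 autosomal pairs, and the exception was again the pair with chromosome 11. These libraries were picked by chromosome 15, so this count is a description. The ratio over the 16 reference partners had a median of 1.48 and ran from 1.43 to 1.53.

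Chromosome 4 was its highest partner, with 1.36% and 1.36% of reference trans pairs in WT 1 and WT 2. WT 3 and WT 4 held 0.878% and 0.902%, I53A 1 and I53A 2 held 0.905% and 0.887%, and KO 1 and KO 2 held 0.884% and 0.891%. The ratio was 1.53, followed by chromosomes 17 and 16 with 1.50 each. Chromosome 14 was the lowest reference partner, with 0.901% and 0.910% in WT 1 and WT 2. WT 3 and WT 4 held 0.624% and 0.630%, the I53A libraries 0.639% and 0.653%, and the KO libraries 0.633% and 0.631%. Its ratio was 1.43, that of chromosome 19 was 1.44 and that of chromosome 12 was 1.46. Chromosome 14 also had the lowest cis ratio of the reference autosomes in these libraries. With chromosome 1, outside the reference, the ratio was 1.45.

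Over the partners of chromosome 15 the SD of the log2 ratio was 0.024, beside 0.019 between the other libraries and a median gap of 0.012 between WT 1 and WT 2. In 2 of 16 partners, chromosomes 4 and 14, the ratio lay over 2 of the partner's library SDs from the median. As a share of the partner's own trans pairs the SD over partners was 0.013, close to that between libraries, and 3 of 16 partners lay beyond 2 SDs. On this second measure the ratio ran from 1.45 with chromosome 8 to 1.50 with chromosome 4. As observed over expected pairs the SD over partners was 0.012, above the 0.0074 between libraries and the gap of 0.0055 between WT 1 and WT 2. On that measure 10 of 16 partners lay beyond 1 SD and 3 beyond 2 SDs. Chromosomes without a gain were not measured this way. Over all 190 pairs, 20.0% had WT 1 and WT 2 outside the range of the others on 1 side. Unevenness particular to chromosome 15 is therefore not shown.

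**Figure D3:**
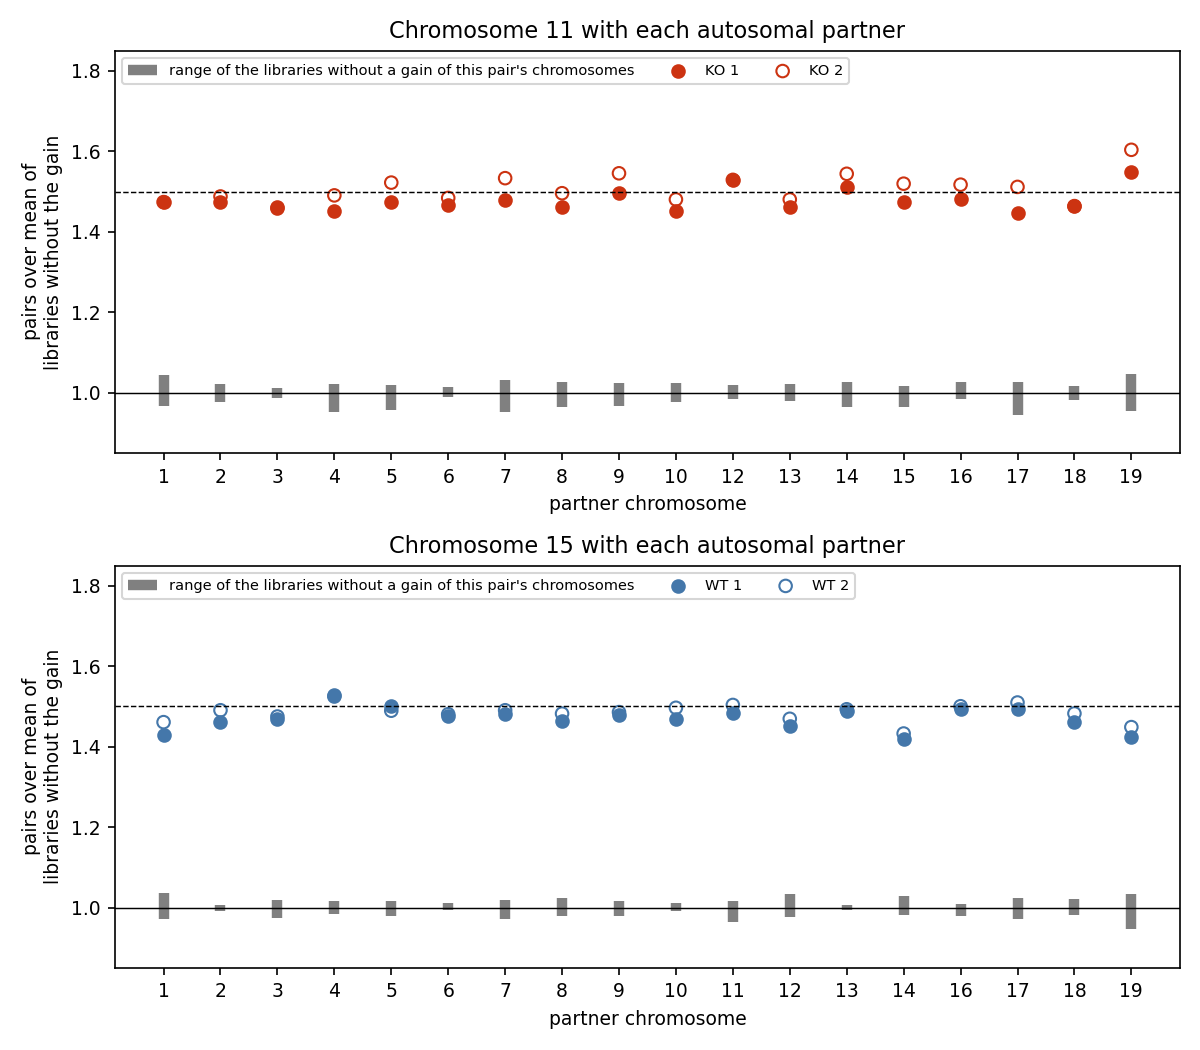
Pairs of chromosome 11 (top) and chromosome 15 (bottom) with each of 18 autosomal partners (x axis), as a ratio to the mean of the libraries without the gain (y axis). Filled and open circles are the 2 gained libraries and grey bars the range of the others, which leave out both kinds of gained library for the pair of 11 with 15, and the dashed line marks 1.5. The circles of the reference partners lie between 1.42 and 1.604, and no bar reaches them.

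The pair of chromosome 11 with 15 belongs to both chromosomes, and no library had both gains. It held 1.43% and 1.47% of reference trans pairs in KO 1 and KO 2 and 1.44% and 1.46% in WT 1 and WT 2. The libraries with neither gain held 0.937% and 0.987% in WT 3 and WT 4 and 0.976% and 0.982% in I53A 1 and I53A 2. An extra chromosome 11 thus went with ratios of 1.47 and 1.52, and an extra chromosome 15 with 1.48 and 1.50. The same pair rose to the same level by a gain on either side.

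Partner preferences were then measured after taking out each chromosome's total, as the log2 ratio of observed pairs to the number expected from the trans totals of both chromosomes in that library. In KO, chromosome 11 kept the highest and lowest partner that it had by the mean of the other libraries. Chromosome 15 stood highest with 0.095 and 0.103, where the other libraries had 0.093 to 0.117. Chromosome 12 stood lowest with -0.10 and -0.11, where the others had -0.11 to -0.056. The shifts between KO and the other libraries were small beside this range, from -0.022 with chromosome 12 to 0.029 with chromosome 19. In 2 partners (9 and 19) both KO libraries lay above and in 2 (6 and 18) below the range of the other 6, beside 18.4% of all 190 pairs of different chromosomes, X included.

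For chromosome 15 the shifts in WT 1 and WT 2 ran from -0.023 with chromosome 8 to 0.019 with chromosome 4. In 2 partners (2 and 4) both libraries lay above and in 1 (12) below the range of the others, beside 20.0% of the 190 pairs. Chromosome 15 also kept the extremes that it had by the mean of the other libraries. They were 0.113 and 0.093 for its pair with 11 and -0.087 and -0.085 for its pair with 12. Single libraries did not all share the lowest partner. In the others the pair with 12 reached -0.053, while the pair with 2 stayed at or below -0.0549.

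**Figure D4:**
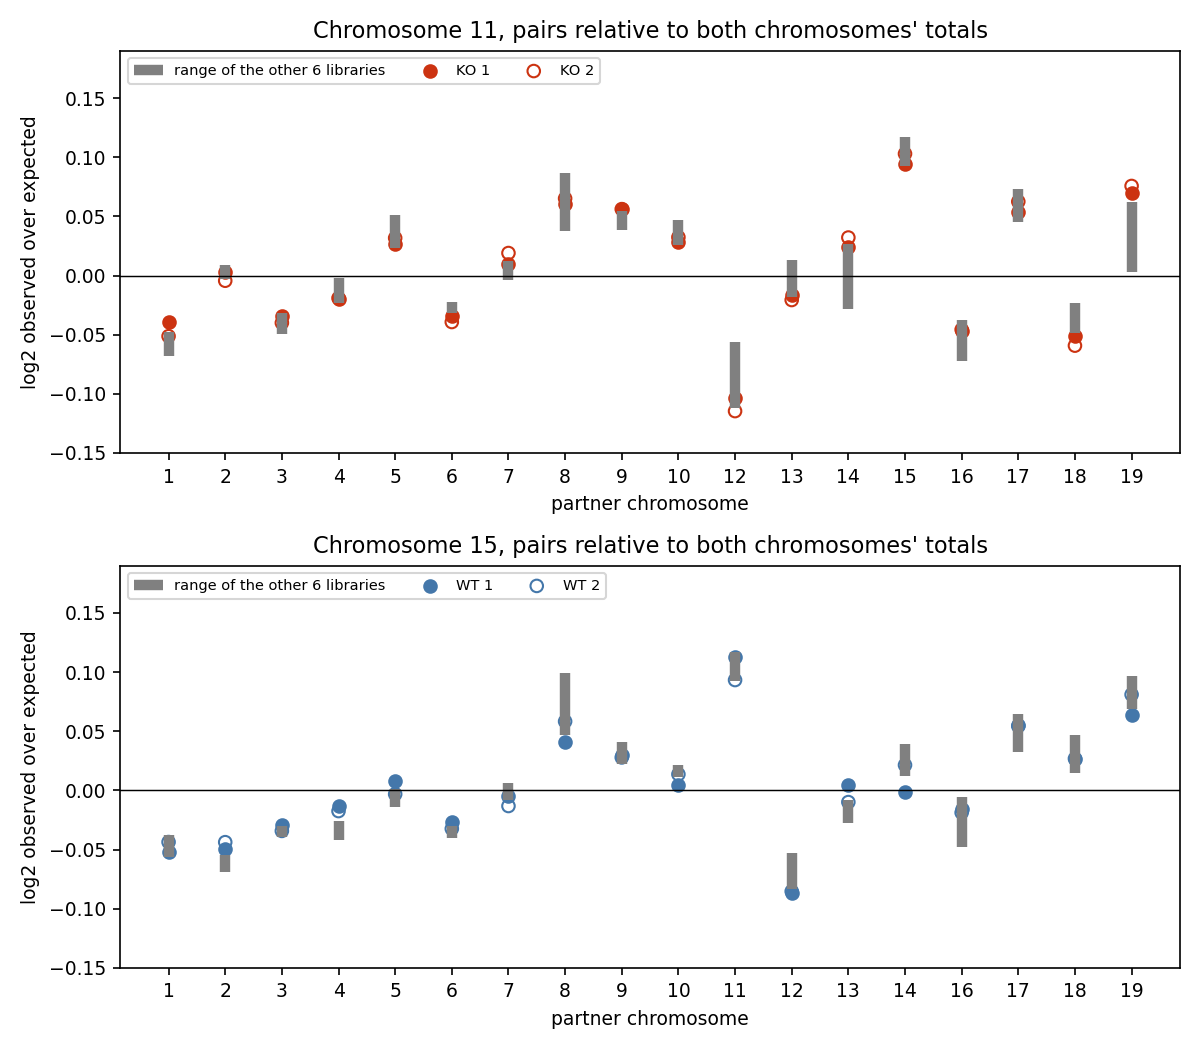
Log2 ratio of observed to expected pairs (y axis) for chromosome 11 (top) and chromosome 15 (bottom) with each autosomal partner (x axis). Circles are the gained libraries and grey bars the range of the other 6. The circles lie in or close to the bars at most partners, over values from about -0.11 to 0.117 for chromosome 11.

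For chromosome 11 the contrast that did not enter its choice is I53A against WT. Its cis pairs differed by -0.0059 on the log2 scale (pooled SD 0.033, exact permutation p = 0.80, two-sided) and its trans pairs by -0.0017 (pooled SD 0.028, exact permutation p = 0.933, two-sided). The smallest p that 2 libraries against 4 allow is 0.133. Chromosome 11 in I53A was within the spread of WT.

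Of the 18 trans pairs of chromosome 11, 0 passed an adjusted p of 0.05 for I53A against WT in edgeR's quasi-likelihood test over 190 pairs, of which 2.11% were called. At an unadjusted p under 0.05 there were 7, but all 190 pairs were not counted at that limit, so nothing is read from it. DESeq2 called 5, beside 21 of the 190, and limma 0, beside 3 of the 190. The largest estimates were 0.030 ± 0.0082 with chromosome 14 and 0.029 ± 0.0073 with chromosome 8 (SE, log2). Without WT 4 the test called 3, beside 19 of the 190. With the replicate number as a block it called 3, beside 30 of the 190.

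For chromosome 15 the contrast outside its choice is I53A against KO, neither of which had the gain. The cis difference was 0.015 on the log2 scale (pooled SD 0.0059, exact permutation p = 0.333, two-sided). The trans difference was 0.0071 (pooled SD 0.0067, exact permutation p = 0.667, two-sided). With 2 libraries against 2 the smallest possible p is 0.333, so neither could pass 0.05.

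In the same contrast edgeR called 2 of the 18 trans pairs of chromosome 15, beside 10.5% of all 190 pairs. The share among its pairs was thus near that over all pairs. The pair with chromosome 8 was higher in I53A by 0.049 ± 0.0076 (SE, log2, edgeR adjusted p = 0.00361). Its observed-over-expected log2 values were 0.096 and 0.099 in I53A and 0.047 and 0.052 in KO. The WT libraries spanned 0.041 to 0.079. The pair with chromosome 16 was lower in I53A, at -0.029 ± 0.0064 (SE, log2, edgeR adjusted p = 0.0134). Its values were -0.048 and -0.046 in I53A and -0.013 and -0.022 in KO. Chromosome 11 differed in the same directions with both partners, by 0.023 with chromosome 8 and -0.024 with 16. Over the 15 other settings that kept the offset these stayed at 0.021 to 0.029 and at -0.026 to -0.016. KO entered the choice of chromosome 11, so its values are a description without a test. The directions were thus not seen in chromosome 15 alone, though with chromosome 8 the difference was smaller for chromosome 11.

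Both estimates for chromosome 15 kept their size over the 15 other settings that kept the offset, while the calls did not all hold. For the pair with chromosome 8 the difference stayed between 0.046 and 0.055, with an adjusted p from 1.69e-05 to 0.0792, and it was called in 13 settings. For the pair with 16 it stayed between -0.034 and -0.025, with an adjusted p from 0.00101 to 0.0999, and it was called in 11. Neither was called without I53A 2 or by limma, and without I53A 1 or without KO 1 the pair with chromosome 8 alone was called.

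For KO against WT, the contrast behind the choice of chromosome 11, the same fit called 4 of its 18 trans pairs, beside 8.95% of all 190, and nothing is read from that count. The count was 0 without WT 2, without I53A 1, without KO 1 or without KO 2, and 0 with the rescued share as a batch term.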

How the data were processed

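The authors deposited raw counts of read pairs per library, which are unique pairs after removal of duplicates as the files are named, on build mm9 per the labels. A table of the whole series gave 8 library columns, equal to the 8 libraries' own files, and 3 genotype sums that were not used. The aligner and mapping-quality limit are not given in the sources used here. Chromosome lengths, base composition, DpnII sites and genes came from NCBIM37 and GENCODE M1.

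Cis counts were divided by the summed cis counts of the 16 autosomes other than 1, 11 and 15, and trans counts by the trans counts among them. Expected pairs came from iterative proportional fitting of each library's trans totals with an empty diagonal, over chromosomes 1 to 19 and X. Those 190 pairs were tested with edgeR 4.0.16 (quasi-likelihood, all 8 libraries, 1 mean per genotype, Benjamini-Hochberg over 190) in R 4.3.3. The planned test named no dispersion. With edgeR's estimated one 10 to 20 of 190 F statistics were negative, so the negative binomial dispersion was set to 0, a choice made after seeing the data. All extra spread entered the quasi-likelihood dispersion. On simulated I53A against WT counts (190 pairs) with a spread of 0.440% between libraries, this fit recovered 6 of 6 changes of 0.10 and 6 of 6 of 0.03 on the log2 scale, with 0 false calls. Some real pairs spread more between WT libraries, so this does not give the power for such pairs. Single values were tested by exact permutation with scipy 1.17.1.

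The members, lists and tests were chosen with earlier results of these data known. Named partners were the 3 highest and 3 lowest ratios of each chromosome, chromosome 1, and members past an adjusted p of 0.05 in the contrasts outside the choice. The pair of 11 with 15 was set against the 4 libraries with neither gain. No count was low enough to need a filter. Alternatives were other reference sets, other comparison libraries, other pair normalizations, a replicate block, a batch term, DESeq2 1.42.0, limma, and leaving out each library.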

Additional observations from a re-analysis of the deposited data

Results flagged for a closer look

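Among the 37 members checked in the 4 WT libraries, WT 3 stood apart in 2. Chance at 1 in 20 over all 37 gives about 1.85, but this number is too high. In chromosome 15 with itself and its 18 trans pairs, WT 1 and WT 2 lay far above WT 3 and WT 4. No single library stands apart in such a split. An expected number for the remaining members was not worked out, so the 2 are not compared with chance. The pairs of chromosome 11 with 4 in WT 3 were 1.29% of reference trans pairs. WT 1, WT 2 and WT 4 held 1.37% to 1.38%, a gap of 0.866 of the group's range. The pairs of 11 with 5 in WT 3 were 1.28% against 1.36% to 1.36%, a gap of 0.969 of the range.

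Chromosome 15 differed between I53A and KO in its pair with chromosome 8, by 0.049 on the log2 scale (edgeR adjusted p 0.00361). In its pair with 16 the difference was -0.029 (edgeR adjusted p 0.0134). The pairs of chromosome 11 with 8 and 16 differed in the same directions, by 0.023 and -0.024. KO entered the choice of chromosome 11, so these 2 values are a description without a test. The directions were thus not seen in chromosome 15 alone.

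The sex chromosomes were outside the partners described. The pair of chromosome 11 with X was higher in KO than in the other libraries by a ratio of 1.41 (1.43 and 1.40 in KO 1 and KO 2, with the others at 0.979 to 1.02 of their mean). With Y it was 1.43, where the others spread from 0.815 to 1.19. The pair of chromosome 15 with X was higher in WT 1 and WT 2 by 1.54 (1.55 and 1.54, with the others at 0.960 to 1.02), and with Y by 1.42, where the others spread from 0.811 to 1.23. Pairs with Y were few, from 2667 to 18957 per library. The levels of X and Y themselves enter these ratios, and their part was not tested.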

How the results depend on the processing

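The cis and trans ratios of both chromosomes held under other references and comparison libraries, at 1.49 to 1.51 for chromosome 11 and 1.47 to 1.50 for chromosome 15. The 1 shift above the library SD was the trans ratio of chromosome 15 within the low rescued share, 1.47 (1.4675). Leaving out each library gave 1.486 to 1.503 (cis) and 1.476 to 1.507 (trans) for chromosome 11, and 1.495 to 1.501 and 1.475 to 1.486 for chromosome 15. The cis minus trans gap ran from -0.0073 to 0.0167 and from 0.0136 to 0.0221.

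The SD of log2 ratios over 18 partners was 0.058 for chromosome 11 and 0.054 for 15, since libraries with the other gain enter the pair of 11 with 15. It was 0.0302 and 0.0236 over the 16 reference partners, 0.0159 and 0.0125 as a share of the partner's own trans pairs, 0.0141 and 0.0111 as observed over expected, and 0.0415 to 0.0682 and 0.0363 to 0.0637 with each library left out.

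The I53A differences from WT on chromosome 11 changed sign with single libraries left out: cis 0.0054 without I53A 2 and 0.0039 without WT 2 (range -0.0237 to 0.0054), trans 0.0076 without I53A 2, 0.0052 without WT 2 and 0.0078 without WT 4 (range -0.0153 to 0.0078). For chromosome 15, I53A against KO, the ranges were 0.0110 to 0.0197 (cis) and 0.0018 to 0.0124 (trans), and with the 17 autosomes other than 11 and 15 as reference the differences fell to 0.0081 and 0.0011.

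Called pairs of chromosome 11 for I53A against WT were 4 with the estimated dispersion, 3 with the replicate block, 5 with DESeq2 and 0 to 3 with libraries left out. For chromosome 15, I53A against KO, they were 5, 2 and 2, with 0 by limma, 1 without the offset and 0 to 3 with libraries left out. For chromosome 11, KO against WT, they were 9, 2 and 5, with 0 by limma, 17 without the offset, where the copy gain itself enters, 0 with the batch term and 0 to 5 with libraries left out. Over all 190 pairs 4, 20 and 17 were called in this order, 34, 70 and 69 with the estimated dispersion, 21, 20 and 27 with DESeq2 and 3, 0 and 0 with limma. The cause of the other changes was not tested. The labels share replicate numbers across genotypes but name no shared batch, so the numbers were not taken as pairs. The difference of library 1 minus 2, correlated over the 190 pairs, gave r = 0.419 between I53A and KO. It was -0.122 between I53A and WT and -0.292 between KO and WT. Whether I53A and KO libraries of the same number belong together was not tested. With the replicate block 30, 29 and 16 of the 190 pairs were called. The dispersion of 0 and the comparisons with the estimated dispersion and with limma were chosen after seeing the data.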

Other observations

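As a description, over the 16 reference partners the ratio of chromosome 11 in KO was related to the partner's genes per Mb with Pearson's r = 0.378 and Spearman's rho = 0.388, and to its length with r = -0.467 and rho = -0.262. As a share of the partner's own trans pairs these were r = 0.581 and rho = 0.535 for genes and r = -0.254 and rho = -0.050 for length. For chromosome 15 in WT 1 and WT 2 the value for genes was r = 0.0623 with rho = 0.306, and for length r = 0.309 with rho = 0.159. The points of a chromosome share all its libraries, so no p is given.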
